A study of Homo sapiens with 18 samples.

Results

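In SCC25, a line of head and neck squamous cell carcinoma (HNSCC), 9245 of 115087 regions of accessible chromatin (8.03%) carried peaks that the lines SCC1 (UM-SCC-1) and SCC6 (UM-SCC-6) lacked. They were chosen by peak calls. A region of the merged peak table was taken when it overlapped, by at least 1 base, a peak in 3 or more of the 6 SCC25 libraries and none in the 11 SCC1 and SCC6 libraries, with both treatments counted. Cells of each line were given cetuximab, an antibody against EGFR, daily at 100 nM, or PBS as the untreated control, for 5 days. ATAC-seq, in which the transposase Tn5 cuts and tags open DNA, was then performed on 3 replicates per group. SCC1 PBS replicate 2 was not analysed here, which left 5 SCC1 libraries, 6 SCC6 libraries and 6 SCC25 libraries. The labels give no other treatment or engineered allele, each line stands for 1 tumour, and nothing says that replicates were separate cultures, so p-values measure the spread between these libraries, which may be technical.

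Accessible regions comprise promoters, which lie at transcription start sites and tend to be open in many cell types, and distal regions, many of which act as enhancers and differ between cell types. Enhancers of squamous epithelium are bound by factors such as p63, the regulator of the basal keratinocyte state, AP-1, a dimer of FOS and JUN proteins that is produced when EGFR signals through ERK, RUNX factors and TFAP2 factors. Regions open in 1 line of a tumour type and closed in others can carry a lineage state, the history of the tumour or its copy number, and accessibility alone does not tell these apart.

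The sequences of 8 regions were taken from the GRCh37 reference to show what these regions look like. The first 5 are among the regions, or among the start sites, with the highest signal in SCC25, and the last 3 were called after cetuximab and are described further on. Each is the 200-base window, clear of annotated untranslated exons, nearest to the centre of its region. All are on the plus strand, in lower case, and capitals mark matches to the AP-1 motif (TGANTCA), the RUNX motif (TGTGGT) or the TFAP2 motif (GCCNNNGGC) on either strand. The windows are chr2:209224103-209224302 at PTH2R, chr6:95967067-95967266 near MANEA, chr1:175323297-175323496 in TNR, chr9:101751913-101752112 in COL15A1, chr14:54423589-54423788 at BMP4, chr9:107594011-107594210 in ABCA1, chr9:119915400-119915599 in ASTN2 and chr6:70618013-70618212 in COL19A1.
PTH2R start site: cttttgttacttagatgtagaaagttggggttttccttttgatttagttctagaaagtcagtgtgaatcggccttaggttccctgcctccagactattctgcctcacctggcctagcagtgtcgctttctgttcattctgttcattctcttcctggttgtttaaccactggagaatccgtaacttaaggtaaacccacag
near MANEA: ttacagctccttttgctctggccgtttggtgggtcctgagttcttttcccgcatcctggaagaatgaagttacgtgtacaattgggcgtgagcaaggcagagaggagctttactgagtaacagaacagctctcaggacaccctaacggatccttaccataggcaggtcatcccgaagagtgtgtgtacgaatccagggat
TNR coding exon: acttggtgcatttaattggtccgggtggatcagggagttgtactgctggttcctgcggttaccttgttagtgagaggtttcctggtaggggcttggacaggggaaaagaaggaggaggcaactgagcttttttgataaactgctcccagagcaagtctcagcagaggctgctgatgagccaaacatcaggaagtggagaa
COL15A1 intron: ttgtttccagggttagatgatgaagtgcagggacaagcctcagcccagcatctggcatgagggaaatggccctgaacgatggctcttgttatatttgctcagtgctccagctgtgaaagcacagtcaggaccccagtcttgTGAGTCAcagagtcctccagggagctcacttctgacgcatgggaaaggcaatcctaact
BMP4 start site: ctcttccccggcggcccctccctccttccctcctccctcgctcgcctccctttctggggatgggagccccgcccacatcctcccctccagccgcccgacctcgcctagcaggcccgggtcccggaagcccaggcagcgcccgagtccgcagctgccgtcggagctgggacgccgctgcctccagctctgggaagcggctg
ABCA1 coding exon: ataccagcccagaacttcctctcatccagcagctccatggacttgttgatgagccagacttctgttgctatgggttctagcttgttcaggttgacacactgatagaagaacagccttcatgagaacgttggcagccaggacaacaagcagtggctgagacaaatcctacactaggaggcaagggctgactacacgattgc
ASTN2 intron: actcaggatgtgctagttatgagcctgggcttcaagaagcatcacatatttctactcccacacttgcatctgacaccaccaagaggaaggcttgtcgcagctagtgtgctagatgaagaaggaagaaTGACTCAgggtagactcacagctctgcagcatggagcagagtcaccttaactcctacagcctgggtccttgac
COL19A1 intron: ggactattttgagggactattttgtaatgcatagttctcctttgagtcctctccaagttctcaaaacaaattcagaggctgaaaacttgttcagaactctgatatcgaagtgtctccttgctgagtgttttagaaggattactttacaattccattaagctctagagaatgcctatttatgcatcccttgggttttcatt
The COL15A1 and ASTN2 windows each held 1 AP-1 match and the other windows held none of the 3 motifs. The BMP4 window was rich in G and C, as start sites often are, and the COL19A1 window was rich in A and T.

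The signal is a number of reads multiplied by a scaling factor for each library, so that libraries of different depth can be set side by side. Over the SCC25-only regions its median was 44.5, 41.8 and 41.6 in SCC25 PBS replicates 1, 2 and 3, and 36.6, 39.7 and 35.4 in SCC25 cetuximab replicates 1, 2 and 3. It was 6.26 to 8.93 in the SCC1 libraries and 2.79 to 4.30 in the SCC6 libraries. All SCC25 libraries lay above their own median over all regions (19.5 to 24.5), and all SCC1 and SCC6 libraries lay below theirs (13.6 to 24.2). This follows from the rule and was not tested. The median log2 difference was 2.28 against SCC1 and 3.05 against SCC6, with 10th to 90th percentiles of 0.586 to 3.66 and 1.53 to 4.31. In 4958 regions (53.6%) it was over 2 against both lines.

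**Figure D1:**
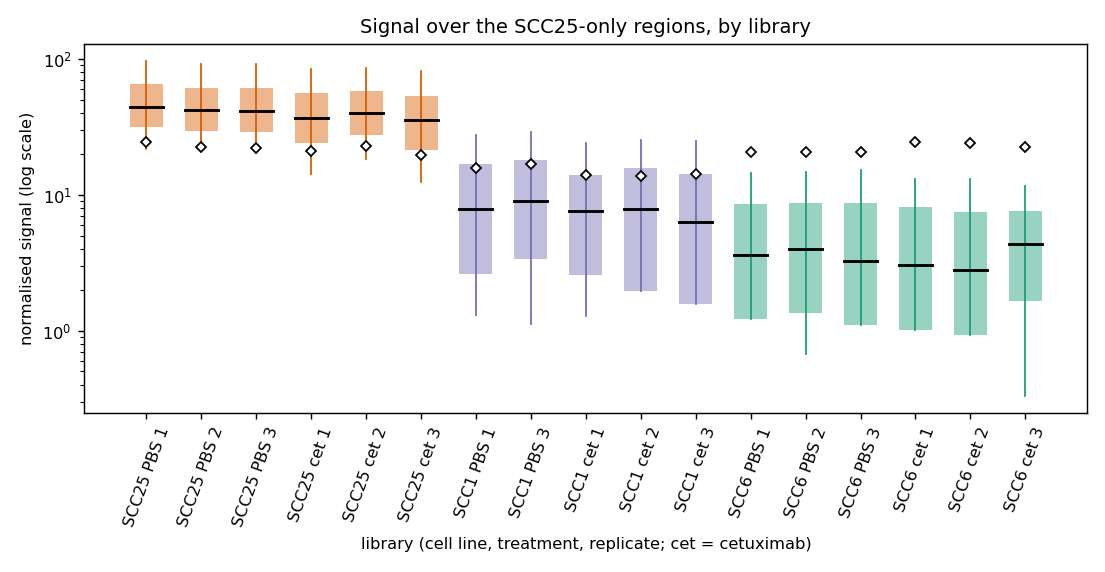
Normalised signal over the SCC25-only regions (log scale) in each of the 17 libraries, with the median (black line), the quartiles (box), the 10th and 90th percentiles (whiskers) and the median over all regions of the table (diamond). The boxes of the 6 SCC25 libraries lie above those of the SCC1 and SCC6 libraries, whose medians are at most 8.93.

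Lack of a peak was not the same as lack of signal. In 6557 regions (70.9%) every SCC25 library was above all 11 others, against 12.2% of all regions, a contrast that the rule had used. The log2 difference stayed under 1 against SCC1 in 1538 regions (16.6%) and against SCC6 in 459 (4.96%). The region in PKP1, a plakophilin of desmosomes (chr1:201280590-201281104), shows such a case. It had a signal of 99.8, 120 and 136 after cetuximab and 144, 110 and 134 in PBS in SCC25, and reached 117 in SCC1 without a called peak. At the start site of PDE2A, a phosphodiesterase, SCC1 reached 100 and SCC25 ranged from 150 to 207. The SCC1 libraries held 2194851 to 4171650 reads in regions, beside 2513828 to 13408698 in the SCC25 libraries, and the part of depth in the missing peaks was not tested.

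A further 236 SCC25-only regions (2.55%) held 3 or fewer reads in each SCC25 library although peaks had been called over them. Of these, 207 were at the floor of 1 read in all 17 libraries. When the central 100 bases were mapped back to GRCh37, 125 of the 236 (53%) had no unique place, against 121 of the other 9009 (1.34%) and 2.71% of all regions. Without them 9009 regions remained.

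Peak calls within SCC25 differed between libraries that also differed in depth and treatment, and the libraries with the fewest reads were both treated. PBS replicates 1, 2 and 3, with 13408698, 6533269 and 5509462 reads in regions, had a peak over 99.6%, 90.2% and 82.4% of the SCC25-only regions. Cetuximab replicates 1, 2 and 3, with 3214656, 7385401 and 2513828 reads, had one over 27.3%, 80.6% and 16.6%. Both treated libraries with few reads had few peaks. Cetuximab replicate 2 had more reads than PBS replicates 2 and 3, and a peak over fewer of the regions than either. The most common pattern was a peak in the 3 PBS libraries and in cetuximab replicate 2 only, in 2734 regions (29.6%). Peaks in PBS libraries only were found in 1491 regions (16.1%), and peaks in cetuximab libraries only in 0, which the need for 3 libraries limits to regions called in both shallow treated libraries. The share of depth and of treatment in these patterns was not tested.

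**Figure D2:**
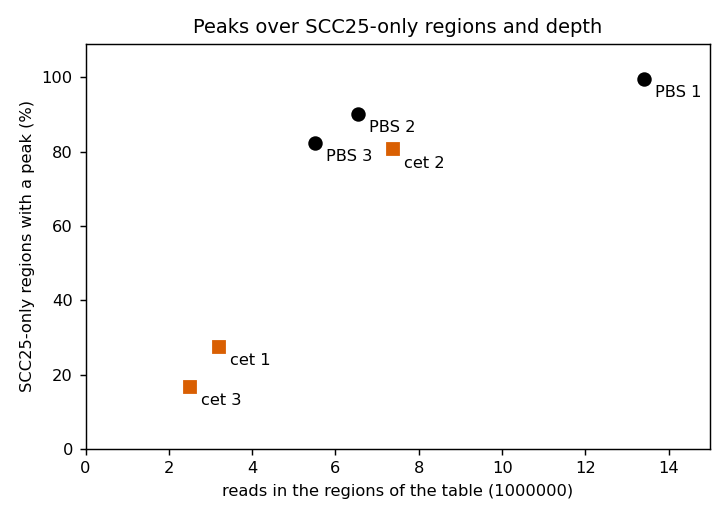
Share of the SCC25-only regions with a peak (y axis, %) against reads in the regions of the table (x axis, in units of 1000000) in the 6 SCC25 libraries, with circles for PBS and squares for cetuximab (cet). The shallowest libraries, cetuximab replicates 3 and 1, have a peak over 16.6% and 27.3%, and the deepest, PBS replicate 1, over 99.6%.

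The rule set its limit at 3 libraries, and most regions lay close to it. Peaks were called in exactly 3 SCC25 libraries in 3596 regions (38.9%), in 4 in 3204 (34.7%), in 5 in 1585 (17.1%) and in all 6 in 860 (9.30%). The median of the mean SCC25 signal was 29.2, 41.4, 57.9 and 96.3 in these classes, and the median width was 233, 287, 343 and 419 bases. Outside the limit, 5623 regions with a peak in exactly 2 SCC25 libraries and in no other line had a median signal of 21.5. The quartiles of the 3-library class (23.2 to 37.6) and of the 2-library class (16.6 to 27.5) overlapped.

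Regions near the middle of each class show the limit. Just inside, the region chr5:92423120-92423409, 496 kb from NR2F1, had values of 14.1, 23.4 and 30.1 after cetuximab and 30.1, 33.9 and 43.3 in PBS. Its highest value elsewhere was 11.4. The region chr11:127498138-127498355, 627 kb from KIRREL3, also inside, had 35.2, 34.5 and 30.1 after cetuximab and 29.8, 31.0 and 14.4 in PBS, and SCC1 reached 27.3, so its lines overlapped. Just outside, the region chr4:103967951-103968128 in an intron of SLC9B2 had 16.9, 24.1 and 24.8 after cetuximab and 30.1, 14.4 and 18.7 in PBS. The region chr3:82659443-82659682, 849 kb from GBE1, had 11.2, 13 and 5.31 after cetuximab and 37.3, 37.5 and 24.6 in PBS. The peaks themselves had median fold enrichments over local background of 3.26 to 3.59, close to the 3.29 to 3.60 for all peaks of the libraries. Their median −log10 q was slightly lower in each library (2.63 to 5.27 against 2.72 to 5.36). They were also narrower in every library but PBS replicate 1, with medians of 135 to 246 bases against 172 to 223.

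The epithelial identity of the line was checked at marker promoters. KRT5 and KRT14, the basal keratins, CDH1 (E-cadherin) and EPCAM had a peak in 4, 3, 4 and 5 of the 6 SCC25 libraries, and TP63 in 2. None of these promoters was an SCC25-only region. No region lay at the promoters of PTPRC, CD3E or PECAM1, the markers of blood and endothelial cells. The promoter of CD14 had a peak in 1 SCC25 library, and that of COL1A1, a collagen gene of stromal cells, in 5.

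The strongest SCC25-only region lay over the start site of PTH2R, a receptor for parathyroid hormone and its relatives (chr2:209223703-209224703). Its signal was 714, 801 and 606 after cetuximab and 770, 693 and 700 in PBS in SCC25 (mean 714 ± 67.9, SD, n = 6), against 7.36 to 23.5 in the 11 other libraries. The lines lay far apart and the treatments overlapped.

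The next was intergenic, 57.6 kb from MANEA, an endomannosidase of the Golgi (chr6:95966538-95967796), with 536, 488 and 448 after cetuximab, 537, 449 and 450 in PBS, and at most 37.6 elsewhere. A region over a coding exon of BICD2, an adaptor of the dynein motor (chr9:95477710-95478574), had 382, 453 and 363 after cetuximab and 456, 413 and 462 in PBS. SCC1 had 47, 66.2 and 62.6 there after cetuximab and 15.6 and 19 in PBS. Its log2 change in SCC1 was 1.69 with an adjusted p of 0.000612 by limma. That change rests on 2 PBS libraries, and the SCC1 calls over SCC25-only regions depended on single libraries, as described further on. A region over a coding exon of TNR, the extracellular matrix protein tenascin-R (chr1:175323127-175323666), had 429, 383 and 400 after cetuximab, 453, 428 and 378 in PBS and at most 25.3 elsewhere. Treated and untreated SCC25 libraries overlapped in each of these regions.

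The other 2 of the strongest 6 were lower in each treated library than in any PBS library. The region in an intron of COL15A1, a basement membrane collagen (chr9:101751682-101752344), had 322, 363 and 278 after cetuximab and 470, 430 and 437 in PBS, a log2 change of -0.48 (SE 0.11) with an adjusted p of 0.0420 by limma. An intergenic region on chromosome 8, 1276 kb from FAM135B (138160895 to 138162120), had 381, 381 and 342 after cetuximab and 451, 436 and 440 in PBS, a log2 change of -0.27 with an adjusted p of 0.214. Only the first of these passed the test, and its adjusted p was 0.0602 with libraries centred on their medians, 0.0506 to 0.285 without any single SCC25 library but cetuximab replicate 2, and 0.678 with all lines in 1 fit.

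Few of the regions were promoters. Of the 9245, 407 (4.4%) lay within 1 kb of the start site of a protein-coding gene, against 13.5% of all regions, 3.91% of the 614 SCC1-only regions, 3.18% of the 26234 SCC6-only regions, and 25.3% of the 40936 regions with a peak in 3 or more SCC25 libraries and in another line. Between genes lay 52.8% and in introns 39.6%, against 47.3% and 35.9% of all regions. The median distance to a start site was 56.6 kb, against 36.4 kb for all regions and 23.9 kb for the shared SCC25 regions, and 37.5% were over 100 kb away. Regions open in 1 line were thus mostly distal in each of the 3 lines. The median GC content was 46.5% in SCC25-only regions, 46.0% in all regions, 49.5% in SCC1-only regions and 34.5% in SCC6-only regions.

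At start sites the strongest regions after PTH2R were those of CDK5RAP2, a centrosome protein, PLPPR1, a membrane protein of neurons, and CCDC152. CDK5RAP2 (chr9:123174665-123175774) had 340, 272 and 335 after cetuximab, 430, 355 and 420 in PBS and at most 23.9 elsewhere. CCDC152 (chr5:42756626-42757646) had 252, 238 and 220 after cetuximab and 257, 261 and 250 in PBS, with 5.84 to 30.6 elsewhere. Both lay far lower in the other lines than in SCC25. PLPPR1 was at 238 to 357 in SCC25 and reached 63.6 in SCC1.

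The start sites of BMP4, PAX6 and DNAH5 came next. BMP4, a bone morphogenetic protein ligand (chr14:54423376-54424001), varied least over the SCC25 libraries, with 222, 225 and 236 after cetuximab and 242, 229 and 238 in PBS (mean 232 ± 7.52, SD, n = 6). It reached 24.7 in SCC1 and 12.0 in SCC6. PAX6, a paired-box factor of eye and brain development (chr11:31832598-31833063), had 197, 207 and 213 after cetuximab and 271, 234 and 236 in PBS, with at most 29.2 elsewhere. DNAH5, an axonemal dynein of cilia (chr5:13944722-13945311), had 197, 178 and 184 after cetuximab and 268, 252 and 242 in PBS. Although the treated libraries lay below the PBS libraries at PAX6 and DNAH5, the adjusted p was 0.343 and 0.104 by limma. C6orf118, EPB41L3, a cytoskeletal adaptor at the membrane, and PDE2A closed the 10, with means of 214, 196 and 184. None of the 10 passed the test of cetuximab in SCC25, with adjusted p between 0.104 and 0.983.

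**Figure D3:**
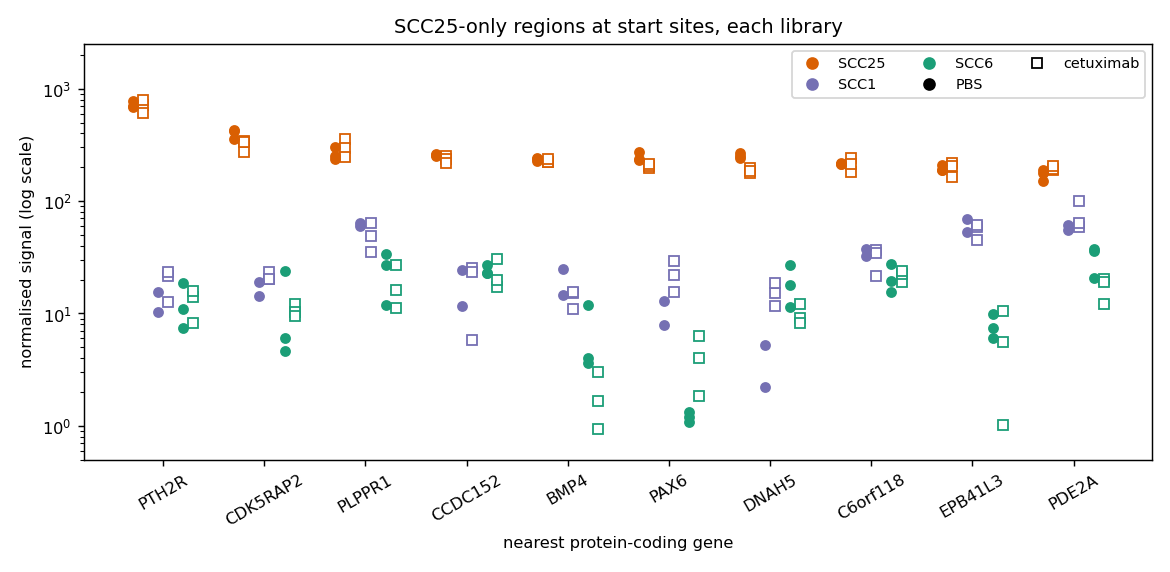
Normalised signal (log scale) of the 10 strongest SCC25-only regions within 1 kb of a start site, by nearest protein-coding gene, with 1 point per library (filled circles PBS, open squares cetuximab). The SCC25 libraries lie at 150 to 801 and the SCC1 and SCC6 libraries at 100 or below.

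Distal SCC25-only regions were searched for 15 motifs in their central 200 bases, on both strands, and set beside other distal regions. A match is a description and not a bound site, and regions of 1 library set are not independent. The AP-1 motif was in 42.5% of the 8838 distal SCC25-only regions. It was in 39.8% of the distal SCC25 regions shared with another line, 20.8% of the SCC1-only, 10.5% of the SCC6-only and 29.6% of all distal regions. A high share was therefore not particular to SCC25-only regions, and those with a peak in all 6 SCC25 libraries had 37.8%. The shared regions also have peaks in SCC1 or SCC6, and the share over all regions of those lines was not computed. The SCC6-only regions, with the lowest share, also had a lower median GC content (34.5% against 46.5%), and the part of base composition in this gap was not tested. The RUNX motif was in 24.7% of SCC25-only regions against 21.5% of shared SCC25 regions, 12.5% of SCC1-only, 13.5% of SCC6-only and 18.7% of all.

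The p63 motif, a palindrome whose cores are 6 bases apart, differed more between the SCC25 classes. It was in 12.6% of SCC25-only regions, 8.78% of shared SCC25 regions, 12.7% of SCC1-only, 3.95% of SCC6-only and 7.70% of all distal regions. Lower shares than in the shared SCC25 regions were found for the E-box motif CAGGTG, the core bound by ZEB and SNAI factors (14.4% against 20.9%, and 16.2% of all). The same held for the TEAD motif GGAATG (15.1% against 19.2%, and 17.8% of all), for TFAP2 (5.35% against 7.82%, and 6.09% of all) and for CTCF, the insulator protein (0.430% against 1.62%, and 1.83% of all). The homeobox motif TAATTA was in 5.41% against 3.55%, and in 6.50% of all.

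For the remaining motifs the order of the shares varied. The KLF motif GGGNGTG was in 17.2%, against 20.1% of shared and 14.4% of all. For the FOX motif TGTTTAC, that of forkhead factors, the shares were 5.87%, 7.33% and 5.46% in the same order. The CEBP motif TTGCNNAA was in 10.9% of both SCC25 classes and 11.8% of all. The GATA motif AGATAAG, present in 11.4% of SCC1-only regions, was in 3.75%, 3.38% and 3.75%. The SOX motif ACAATGG was in 2.85%, 2.43% and 2.59%. Rarest were the grainyhead motif AACNGGTT (1.73%, 2.04% and 2.33%) and, after it, the ETS motif CCGGAAG (1.06%, 1.45% and 1.05%). Base composition moves with these shares. Within distal regions of 40 to 50% GC, AP-1 was in 47.9% of the 3805 SCC25-only regions and 48.9% of the 12554 shared ones, RUNX in 25.8% and 23.0%, and p63 in 14.8% and 11.1%. Over 4 classes of GC content, the p63 share was higher in SCC25-only than in shared regions in all 4, the RUNX share in 3 and the AP-1 share in 2. The part of base composition in the remaining differences was not tested.

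**Figure D4:**
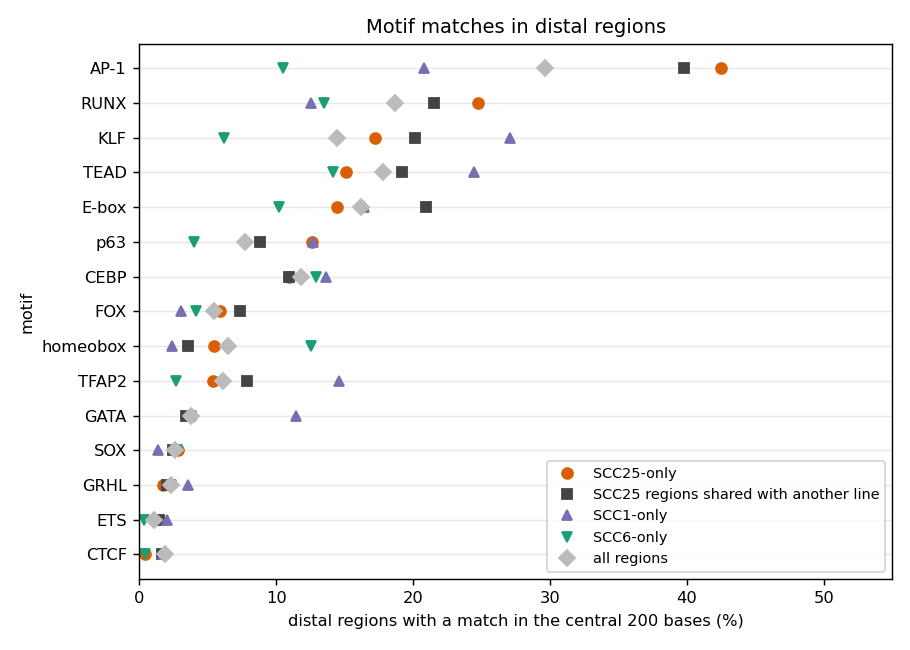
Share of distal regions (x axis, %) with a match to each of 15 motifs (y axis) in the central 200 bases, for SCC25-only regions, SCC25 regions shared with another line, SCC1-only regions, SCC6-only regions and all regions. AP-1 is the most common motif in SCC25-only regions (42.5%) and in shared SCC25 regions (39.8%), and is at 10.5% in SCC6-only regions.

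The regions were spread over the genome. Of 2842 bins of 1 Mb with at least 10 regions, 440 held none, the median share per bin was 6.67%, and no bin exceeded 50%. The share was highest on chromosomes 18 (13.7%), 9 (10.8%) and 14 (10.7%) and lowest on 19 (2.51%) and 22 (2.57%), which are rich in genes and promoters. Copy number was not measured, so a gain in SCC25 or a loss in another line cannot be told apart from a difference in accessibility. Alone, with no other SCC25-only region within 20 kb, were 7044 (76.2%).

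Runs of neighbouring regions were short. The longest run held 7 of the 8 regions in 55.4 kb near PWWP3B on chromosome X, with mean SCC25 signals from 0.962 to 73.3. The lowest of these is the floor of 1 read in each SCC25 library. The highest mean over the 7 regions was 15.7 in SCC1 and 0.872 in SCC6, where it is the floor of 1 read in each library. Whether SCC6 holds this segment was not tested. Between NOL4 and DTNA on chromosome 18, 6 of 8 regions in 55.7 kb had mean SCC25 signals of 31.8 to 94.7, with at most 9.32 in the other lines. Downstream of SOX2, the squamous and stem cell factor, 5 of 8 regions in 39.7 kb (chr3:181597761-181637463) had 31.9 to 85.6, with up to 25.6 in SCC1. Near CCNH on chromosome 5, all 5 regions in 47.1 kb were SCC25-only (24.9 to 176). None of the regions in these runs was called after cetuximab.

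Genes that held SCC25-only regions were longer than protein-coding genes as a whole, which counting by gene span favours for any set of regions. They were not compared with genes that hold any region, so the lengths describe no trait of the SCC25-only regions. The protein-coding genes with a member numbered 2748, 1859 of them with 1, and their median length was 0.130 Mb against 0.0272 Mb for all protein-coding genes. MACROD2, a hydrolase of ADP-ribose, held 22 SCC25-only regions of its 81 regions (27.2%). RBFOX1, a neuronal splicing factor, held 16 of 53, WWOX 12 of 31 and NTM, a neuronal adhesion protein, 11 of 42. These genes span 0.966 to 2.47 Mb, and MACROD2 and WWOX are known as sites of deletion in tumours. With 10 each followed PCSK5, GRID1, VAV3, STPG2, PARD3, ERBB4, ASTN2 and TENM2. ASTN2, a neuronal membrane protein, held 2 regions that were called after cetuximab, and the other genes named here held 0.

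Genes of pathways that matter in HNSCC were read from 10 lists, by regions inside the gene or with the gene's start site nearest. The SCC25-only share ranged from 7.39% (cytokines and chemokines) to 11.6% (EMT and mesenchymal genes), beside 8.03% of all regions, so no list stood far from the background. Of the 380 tested members in these lists, 0 were called higher and 3 lower after cetuximab in SCC25 (0.789%), close to the 0.784% over all tested SCC25-only regions and beside 0.275% of all regions tested. The lists hold gene neighbourhoods, and which gene a distal region acts on was not measured.

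Of the ERBB receptors and ligands, 24 of 279 regions (8.60%) were SCC25-only. ERBB4 had 10 of 72, NRG3, a neuregulin ligand, 5 of 49, and EGFR, the target of cetuximab, 4 of 34. The strongest overlapped a coding exon of EGFR (chr7:55260277-55260738), with 105, 110 and 115 after cetuximab, 136, 128 and 120 in PBS and at most 17.4 elsewhere. Its log2 change was -0.21 (SE 0.15) with an adjusted p of 0.582 by limma. The region 8.05 kb from NRG3 (chr10:83626346-83626897) had 66.1, 104 and 47.8 after cetuximab and 136, 135 and 137 in PBS, and passed the test with a log2 change of -0.96 (SE 0.21) and an adjusted p of 0.0418. That call was lost under 9 of 16 alternatives, with an adjusted p of up to 0.585 in 1 fit of all lines, 0.0556 with libraries centred on their medians and 0.0527 to 0.272 without any single library but cetuximab replicate 2. Among the other receptor tyrosine kinases 43 of 558 regions (7.71%) were SCC25-only. NTRK2, the neurotrophin receptor, had 10 of 38. The strongest there, 500 kb away (chr9:87787366-87787940), had 103, 86.0 and 172 after cetuximab and 162, 169 and 165 in PBS, so treatments overlapped.

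Genes of ERK feedback and output had 40 of 385 regions (10.4%). SPRY2, an inhibitor of receptor tyrosine kinase signalling, had 16 of 87 and PHLDA1 7 of 23. The SPRY2 regions lie in a wide gene desert. The strongest, 1385 kb away (chr13:82299976-82300686), had 221, 306 and 191 after cetuximab and 301, 322 and 230 in PBS, and the treatments overlapped.

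Among squamous lineage factors 33 of 399 regions (8.27%) were SCC25-only. SOX2 had 9 of 43, KLF4 5 of 36, RUNX1 5 of 42, TFAP2A 5 of 65 and TP63 1 of 36. The strongest lay 31.2 kb from TFAP2B (chr6:50817791-50818573), with 260, 251 and 223 after cetuximab, 286, 228 and 242 in PBS and at most 19.0 elsewhere. The next lay 143 kb from SOX2 (chr3:181285524-181286343), with 210, 198 and 152 after cetuximab and 182, 188 and 239 in PBS, while SCC1 reached 53.6. In SCC6 it changed by 1.49 (adjusted p = 0.0387 by limma), at levels of at most 16.2. Neither region was a promoter. In the list of keratinocyte structure, 20 of 188 regions (10.6%) were SCC25-only, and DSC3, a desmosomal cadherin, had 8 of 41. The region 68.7 kb from DSG1 (chr18:28828814-28829444) had 97.0, 98.3 and 60.2 after cetuximab and 83.7, 94.5 and 89.1 in PBS. In SCC6 it changed by 1.64 (adjusted p = 0.0373 by limma), at levels of at most 20.2.

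Among EMT and mesenchymal genes, 47 of 406 regions were SCC25-only. CDH11 (17 of its 68 regions), CDH2 (13 of 78) and ZEB2 (8 of 66) held most of them. CDH11 and CDH2 are cadherins of mesenchymal and neural cells, and ZEB2 represses E-cadherin. The strongest lay 145 kb from TWIST1 in an intron of HDAC9 (chr7:19012103-19012624), with 121, 123 and 81.5 after cetuximab and 167, 139 and 154 in PBS (log2 change -0.51, SE 0.17, adjusted p = 0.173 by limma). A region 1370 kb from CDH11 (chr16:63651128-63652121) had 111, 112 and 112 after cetuximab and 99.1, 98.8 and 84.0 in PBS, with an adjusted p of 0.536. VIM, the mesenchymal filament gene, had 1 of 7.

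The TGF-beta and BMP pathway had 59 of 584 regions (10.1%). Most were at the receptor ACVR2A (12 of 63), the inhibitor of differentiation ID2 (11 of 36) and the ligand BMP2 (8 of 64). An intron of TGFBR3, the co-receptor betaglycan (chr1:92196950-92197658), had 205, 255 and 232 after cetuximab and 246, 227 and 236 in PBS, and the treatments overlapped. In SCC6 this region changed by 0.92 (adjusted p = 0.0444 by limma), at levels of at most 34.4. The WNT pathway had 40 of 441 (9.07%), with 6 of 28 at the inhibitor DKK2, 5 of 35 at FZD8 and 5 of 44 at TCF7L2. An intron of TCF7L2, a WNT transcription factor (chr10:114748416-114749078), had 181, 182 and 172 after cetuximab and 263, 216 and 217 in PBS. Every treated library was below, but with an adjusted p of 0.195 by limma. In SCC1 the same region changed by -2.48 (adjusted p = 0.0267 by limma), at levels of at most 21.2. The region 13.4 kb from SFRP1, a secreted WNT inhibitor, had 267, 386 and 250 after cetuximab and 424, 332 and 348 in PBS.

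Developmental homeobox and paired box factors had 62 of 564 regions (11%). The IRX genes of the cluster on chromosome 5 had 10 of 41 (IRX1), 9 of 24 (IRX4) and 6 of 32 (IRX2). TBX18, a T-box factor, had 8 of 34. The strongest lay 21.7 kb from LHX6 in an intron of MORN5 (chr9:124953380-124954481), with 287, 343 and 336 after cetuximab and 400, 327 and 334 in PBS. Cytokines and chemokines had 13 of 176 regions (7.39%), 3 of them at CXCL14, an epithelial chemokine with 9 regions. The strongest of these, 114 kb away in SLC25A48 (chr5:135029068-135029944), had 131, 165 and 106 after cetuximab and 188, 185 and 148 in PBS.

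After 5 days of cetuximab, few SCC25-only regions were called in SCC25, and those called were nearly all lower. With 3 libraries per group, a region that was not called may still have changed. The question of this comparison is whether blocking EGFR moved the chromatin that marks the line. Each line was fitted on its own with limma over the regions left after the 25% lowest in mean were taken out, 86315 in SCC25 and SCC6 and 86298 in SCC1, with Benjamini-Hochberg adjustment over all of them. Of the SCC25-only regions, 8924 passed the filter on low signal. Called lower were 70 of them (0.784%) and higher 1 (0.0112%), beside 0.275% and 0.0405% of all regions tested. The median log2 change over the members was -0.221, with a pooled SD of library medians of 0.0769, beside -0.0829 over all regions tested. It was negative in 73.2% of the tested members, beside 59.1% of all regions tested.

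Regions that entered through PBS peaks had in part been selected on this contrast. The 1456 tested regions with peaks in PBS libraries only had a median log2 change of -0.543, and 20 of them were called lower. The 848 tested regions with a peak in all 6 SCC25 libraries, which did not depend on treatment in that way, had 12 called lower (1.42%), 0 higher and a median of -0.102. Regions with a peak in all 6 libraries and in another line had 64 of 12851 called lower (0.498%) and a median of -0.0584.

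The number of calls depended on each library. Without PBS replicate 1, 2 or 3 they fell to 4, 4 and 0 lower regions, and without cetuximab replicate 1, 2 or 3 they were 112, 124 and 158. The deepest library is PBS replicate 1, and when reads were thinned to the smallest SCC25 library 44 were called lower and 3 higher, with a median of -0.132. With all 3 lines in 1 fit, which shares the spread of the other lines, 1 was called lower and 0 higher.

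The 70 regions called lower had log2 changes from -0.48 to -2.40 (median -1.04) and lay on 16 chromosomes. On chromosome 9 lay 13 of them (18.6%), beside 5.70% of the tested SCC25-only regions, and 1 was a promoter (1.43%), beside 4.34%. A region over a coding exon of ABCA1, the cholesterol exporter (chr9:107593944-107594277), had 28.1, 30 and 33.6 after cetuximab and 105, 97.4 and 107 in PBS, a log2 change of -1.72 (SE 0.21) and an adjusted p of 0.000525. It had peaks in the 3 PBS libraries only, and its highest value in the other lines was 14.7. Without PBS replicate 3 its adjusted p was 0.0532, and with all 3 lines in 1 fit it was 0.263.

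A region 79.6 kb from PAPPA, a protease that frees insulin-like growth factors (chr9:118836051-118836423), had 11.2, 10.4 and 19.5 after cetuximab and 57.3, 57.7 and 73.0 in PBS. Its log2 change was -2.15 (SE 0.30, adjusted p = 0.00185 by limma, 0.153 without PBS replicate 3, and 0.0958 with all lines in 1 fit). The treated SCC25 libraries stayed above all SCC1 and SCC6 libraries, which were at most 6.53. This region too had PBS peaks only.

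A pair of regions kept a peak in all 6 SCC25 libraries and fell. In an intron of ASTN2 (chr9:119915314-119915686), the signal was 87.2, 117 and 95.6 after cetuximab and 219, 187 and 220 in PBS, a log2 change of -1.06 (SE 0.15) with an adjusted p of 0.00205 (0.126 without PBS replicate 3, and 0.413 with all lines in 1 fit). Its printed window holds an AP-1 match. The same region changed by -1.77 in SCC6 (adjusted p = 0.00903) and by -1.87 in SCC1 (adjusted p = 0.0587), at levels of at most 20.7 and 25.7. The intergenic region on chromosome 8, 244 kb from ZNF703 (37308547 to 37308980), had 80.1, 104 and 126 after cetuximab and 236, 218 and 217 in PBS, with a log2 change of -1.13 (SE 0.16, adjusted p = 0.00172, 0.0787 without PBS replicate 3, and 0.460 with all lines in 1 fit). In SCC6 it changed by -2.07 (adjusted p = 0.00911), from 11.4 to 19.3 in PBS to 1.01 to 5.57 after cetuximab. The lowest of these values is the floor of 1 read, and 10.6% of all regions tested in SCC6 were called lower. Both named regions had peaks in SCC25 under both treatments and none in the other lines.

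The region called higher lay in an intron of COL19A1, a collagen gene (chr6:70617862-70618363), with 107, 84.0 and 90.3 after cetuximab and 55, 41.1 and 39.9 in PBS. Its log2 change was 1.04 (SE 0.21) and its adjusted p 0.0284, which rose to 0.0543 without cetuximab replicate 1, and to 0.0971, 0.208 and 0.255 without PBS replicates 1, 2 and 3. With all lines in 1 fit it was 0.474. The other lines were at most 17.2 there.

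**Figure D5:**
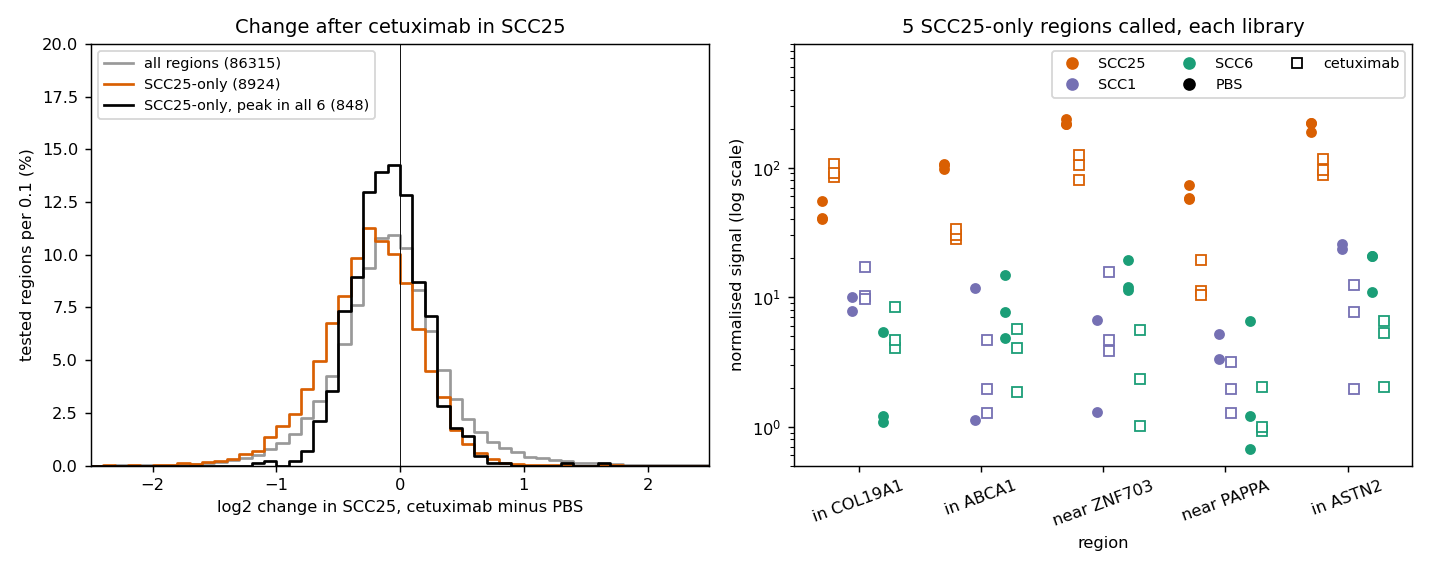
Left, the share of tested regions (y axis, % per 0.1) by log2 change after cetuximab in SCC25 (x axis), for all regions, SCC25-only regions and SCC25-only regions with a peak in all 6 SCC25 libraries, with medians of -0.0829, -0.221 and -0.102. Right, the normalised signal (log scale) of the 5 named regions called in SCC25, with 1 point per library (filled circles PBS, open squares cetuximab): COL19A1 is higher and the other 4 are lower in every treated SCC25 library.

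Regions with an AP-1 match had the lower values. Over the tested distal SCC25-only regions, the median log2 change was -0.295 in 3658 with a match and -0.178 in 4879 without, and 39 (1.07%) and 30 (0.615%) were called lower. With a peak in all 6 libraries, the medians were -0.180 in 310 and -0.0564 in 506. The same order was found over all tested distal regions, with -0.204 in 26963 and -0.0597 in 44842, of which 125 (0.464%) and 108 (0.241%) were called lower, so it was not particular to SCC25-only regions. The difference was not tested.

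Most SCC25-only regions were too low in SCC6 to be tested there. The 2313 that passed the filter were those highest in that line. Of them 299 were called lower (12.9%) and 133 higher (5.75%), beside 10.6% and 16.9% of all regions tested. In SCC1, 7859 passed, of which 205 were called lower (2.61%) and 66 higher (0.840%), beside 6.56% and 4.58%. Reads were few, with a median over all SCC25-only regions of 3 to 13 per library in SCC6 and 4 to 8 in SCC1. In SCC1 the split turned without either PBS library, to 3 lower and 15 higher without PBS replicate 1 and to 6 lower and 37 higher without PBS replicate 3. Without cetuximab replicate 1 it was 126 lower and 22 higher. When libraries were instead centred on their medians, the median log2 change of all regions went from 0.114 to -0.0599 in SCC6 and from -0.0915 to 0.0969 in SCC1. It gave 456 lower and 96 higher calls in SCC6, and 142 lower and 123 higher in SCC1, so the split of the calls depended on the scaling and, in SCC1, on single libraries.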

How the data were processed

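ATAC-seq libraries of SCC1, SCC6 and SCC25 cells were analysed from the deposited region table and peak lists. The authors trimmed reads with Trim Galore 0.5.0, aligned them with Bowtie2 2.3.2 to hg19 (GRCh37), filtered them with Picard 2.18 and SAMtools 1.9, called broad peaks per library with MACS2 and merged peaks with DiffBind; the versions of the last 2 are not given in the sources used here. The deposited signal is a number of reads (0 set to 1) times a scaling step per library (0.331 to 1.95), and 100% of values were whole multiples within a tolerance of 0.001. The authors' peak lists give a fold enrichment (a ratio) and −log10 p- and q-values as MACS2 writes them.

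Peaks were intersected with bedtools 2.31.1. Coordinates are 1-based. Regions were annotated with GENCODE release 44 on GRCh37, and promoters lay within 1 kb of a protein-coding start site. Regions inside genes were named by that gene, others by the nearest start site. Cetuximab was compared with PBS in each line with limma 3.58.1 (trend, robust, two-sided) on log2(signal + 1), leaving out the 25% of regions lowest in mean, with adjusted p under 0.05. This scale understates the change of low regions. Alternative fits used edgeR 4.0.16 and DESeq2 1.42.0 on whole reads obtained by dividing the signal by the step. The limma fit of SCC25 was tested on simulated data, and the other fits were not tested in this way. The central 100 bases were mapped with minimap2 2.31. Reads in regions ranged from 2194851 to 15017130 per library; total depth is not known, and intervals are not given.

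The members, gene lists and motifs were chosen with earlier results of these data known. Named were the 6 strongest regions, the 10 strongest promoters, the 10 genes with most members (ties kept, 1 gene not reported here), up to 4 regions per direction called after cetuximab, the 2 strongest per list, and 2 regions on each side of the limit. Other regions named for a limit of the data were chosen after their values were seen, and so were the sequences shown among those regions.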

Additional observations from a re-analysis of the deposited data

Results flagged for a closer look

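The intergenic region on chromosome 8 near ZNF703 was lower in all 3 cetuximab libraries of SCC25 than the mean of the PBS libraries, and higher in all 3 cetuximab libraries of SCC1, both on the log2(signal + 1) scale. Its log2 change was -1.13 in SCC25 and 0.87 in SCC1, where the adjusted p was 0.564 by limma. The SCC1 signal was 1.30 and 6.70 in PBS and 3.81, 15.6 and 4.69 after cetuximab, so that without logs 3.81 lay below the PBS mean of 4. The difference between the lines was not tested. With 2 or 3 libraries per group, no group was large enough to look for single libraries far from the others.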

How the results depend on the processing

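The number of SCC25-only regions was 2463 with peaks of −log10 q of 5 or more, 5649 with 4 or more of 6 SCC25 libraries, 860 with all 6, 2759 with 2 or more in each treatment and, in a rule added after seeing the data, 14868 with 2 or more of 6. It ranged from 5683 (without PBS replicate 1) to 9174 when 1 SCC25 library was left out. Calls in SCC25 (70 lower, 1 higher) became 33 lower with each library centred on its median, 114 with a pseudocount of 5, and 7 lower and 0 higher at an adjusted p under 0.01. They were 188 and 17 with edgeR, 1 and 0 with all libraries in 1 fit, 44 and 3 with thinned reads (added after seeing the data), and 12 and 0 among members with a peak in all 6 libraries. Higher calls were 2 with quantile normalization and 2 with DESeq2. Leaving out 1 library gave 0 to 158 lower and 0 to 2 higher. Calls in SCC6 were 432, and 1051 with no filter on low regions. Those in SCC1 were 271, 172 with no filter, and 18 to 324 when 1 library was left out. The median log2 change in SCC25 was -0.221, and -0.144 with centring, -0.140 with quantile normalization, -0.102 with a peak in all 6 libraries and, both added after seeing the data, -0.123 with edgeR and -0.132 with thinned reads. The split of the SCC1 calls, 205 lower and 66 higher, turned to 3 and 15 without PBS replicate 1 and to 6 and 37 without PBS replicate 3. No log2 change or median listed here changed sign. Where no cause is evident from the construction of an alternative, the cause was not tested.

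Libraries with the same replicate number had correlations of -0.0232 to 0.0383 in their deviations from the group mean over regions. Libraries with different numbers were not compared in this way, so a pairing by number is not excluded. The main fit did not pair them. With a replicate block, 186 SCC25-only regions were called lower and 2 higher in SCC25, and over all regions 636 lower and 108 higher, beside 237 and 35 in the main fit.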
